A study of Mus musculus with 6 samples.

Results

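The genes described here encode the centromere and the kinetochore, and they were chosen as a list of 35 named genes out of 21883 protein-coding genes on the assembled mouse chromosomes. All 35 were found by symbol. The data are lists of E2F1 binding peaks in NIH/3T3, an established line of mouse embryonic fibroblasts. They come from ChIP-seq, in which chromatin fragments bound by a protein are pulled down with an antibody and sequenced. A gene was taken to have a peak when a listed interval lay inside its span or within 1000 bp of it. Peak positions and gene spans are on GRCm38 (mm10).

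The E2F1 group consisted of 2 libraries from cells with a stably integrated E2F1 construct that responds to doxycycline, and the empty vector (EV) group of 2 libraries from cells with the same system and no E2F1 insert. Cells of both groups were kept for 48 hours in 0.25% serum, which brings them to a G0-like resting state, and then received 500 ng/ml doxycycline for 12 hours, so the EV cells carry the drug treatment too. The dose is the one in the labels, and the naming of the deposited lists carries a different number beside the drug, which the sources used here do not explain. The study set out to find the genes that E2F1 regulates as cells leave this state. Whether the replicates are separate cultures, and whether the lines are clonal, is not given in the sources used here, so the spread between replicates may be technical. The 2 input DNA samples of EV cells were not analysed here.

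The centromere is the stretch of each chromosome that carries nucleosomes with the histone variant CENP-A. On it sits the kinetochore, which is built in layers: an inner network of CENP proteins (the constitutive centromere-associated network, CCAN), an outer layer that grips spindle microtubules (the KNL1, MIS12 and NDC80 complexes), and factors that recruit the spindle checkpoint. Many of these genes are transcribed most strongly in G2 and mitosis. E2F factors are best known for genes of the G1/S transition, and late cell cycle genes are classically tied to the CHR element (cell cycle genes homology region), which the MuvB complex binds, and to CCAAT boxes, which NF-Y binds.

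Nearly the whole list carried E2F1 peaks in the E2F1 cells. None of it had a peak in the EV cells, where at most 0.407% of all protein-coding genes had one. A peak was listed at 32 of the 35 genes in E2F1 replicate 1 (91.4%) and at 34 in replicate 2 (97.1%). Over all protein-coding genes the share was 36.9% in replicate 1 and 38.2% in replicate 2. In both lists together, 31 of the 35 genes had a peak (88.6%, Wilson 95% interval 74.0 to 95.5, counting error only), against 34.4% of all protein-coding genes. The 4 others, Mis18a, Cenpo, Zwint and Bub3, had a peak in 1 of the 2 lists, so no gene of the list was without any.

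The lists held 7836 and 8027 peaks in E2F1 replicates 1 and 2, and 70 and 358 in EV replicates 1 and 2. EV replicate 1 and EV replicate 2 listed a peak at 0 of the 35 genes each, where 0.0366% and 0.407% of all protein-coding genes had one. The mean number of genes with a peak was 33 ± 1.41 (SD, n = 2) in the E2F1 libraries and 0 in the EV libraries. The libraries of the groups did not overlap, and p was 0.333 by exact permutation of the libraries (two-sided), which is as low as 2 against 2 can go. The genome-wide background, the lowest local background solved from a list's own folds and p-values, was 1.85 and 1.86 reads in E2F1 replicates 1 and 2, 2.20 in EV replicate 1 and 1.18 in EV replicate 2. With the E2F1 peaks scaled to the depth of EV replicate 2, 30 genes in replicate 1 and 33 in replicate 2 still passed the p-value at which the lists end. Mis18a and Cenpq were lost in replicate 1 and Zwint in replicate 2. In both lists 30 of the 35 genes remained, against 29.1% of all protein-coding genes under the same scaling. The part of depth in the difference between the groups was not tested beyond this scaling.

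**Figure D1:**
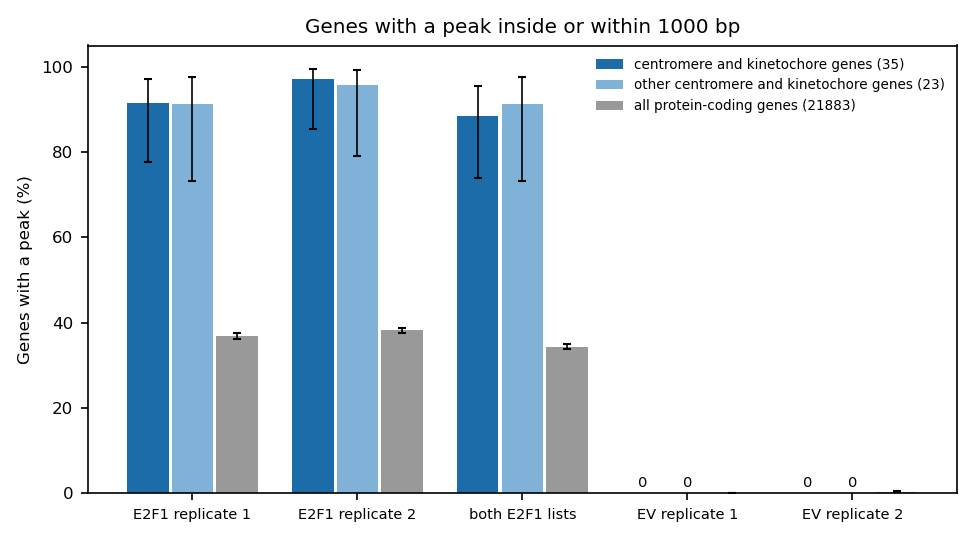
Percentage of genes with a peak inside or within 1000 bp of the gene, by library and for both E2F1 lists together. Bars show the 35 centromere and kinetochore genes, the 23 other genes of the same structures and all 21883 protein-coding genes, with Wilson 95% intervals where the count is above 0; both gene groups stand at 88.6% or above wherever E2F1 lists are counted and at 0 in the EV lists.

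The folds below are the authors' fold enrichments of the peak over the local background at the summit, used within a list. A percentile is the share of the list's peaks with a fold at or below the given one. The strongest peaks of the genes had a median fold of 14.7 in replicate 1 (range 5.81 to 43.6, 32 genes) and 16.5 in replicate 2 (5.58 to 57.3, 34 genes). For all protein-coding genes with a peak the medians were 9.73 and 12.0. Of the listed genes, 27 of 32 (84.4%) and 24 of 34 (70.6%) stood above their list's median fold, against 54.4% and 53.2% of all protein-coding genes with a peak. These counts leave out the genes without a peak, and the lists end at a fixed p-value, so they describe the listed peaks and not the weaker signal.

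**Figure D2:**
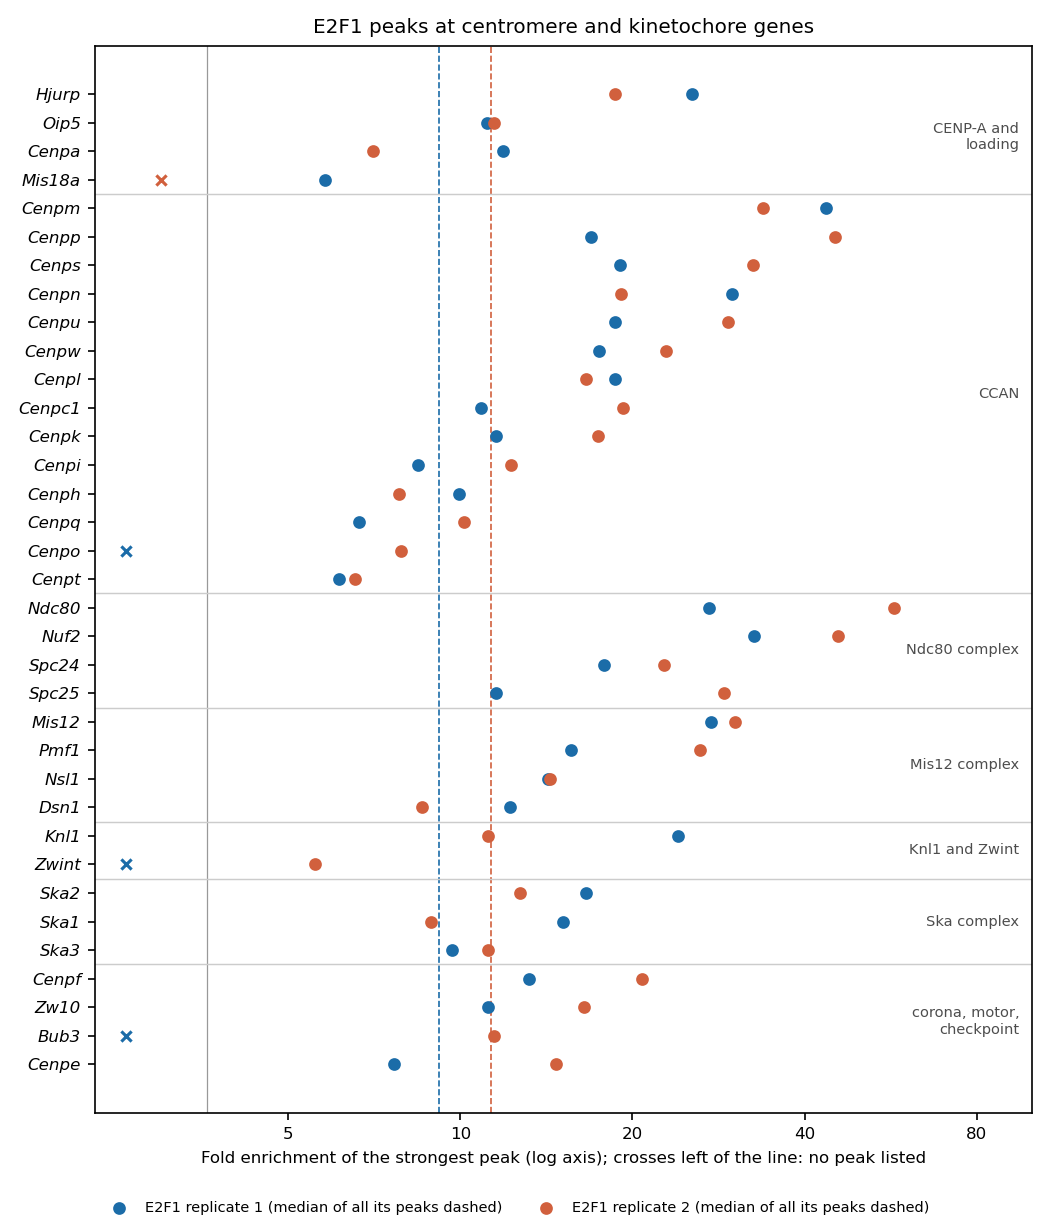
Fold enrichment of the strongest peak of each gene in E2F1 replicate 1 (blue) and replicate 2 (red-orange) on a log axis, grouped by role. Dashed lines are the medians of all peaks of each list (9.19 and 11.3) and crosses mark genes with no listed peak; the NDC80 complex genes all lie to the right of both lines.

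The genes of the CENP-A nucleosome and its loading had peaks of very unequal strength. Hjurp, the chaperone that brings CENP-A to the centromere, had a peak at chr1:88276370-88277711 in replicate 1. Its folds were 25.5 in replicate 1 (rank 456 of 7836 peaks) and 18.6 in replicate 2 (rank 2055 of 8027). Its pileups at the summit, 270 and 277 reads, were the highest among the 35 genes in both replicates, over local backgrounds of 9.64 and 13.9 reads. By −log10 q-value the Hjurp peak therefore ranked much higher, at 63 and 203.

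Cenpa, which encodes the centromeric histone itself, had folds of 11.9 and 7.03. The pileup was 43 reads in replicate 1 and 55 in replicate 2, so the replicate with more reads had the lower fold, and its local background was 6.97 reads against 2.70. Oip5, a subunit of the Mis18 complex that prepares the centromere for new CENP-A, had folds of 11.1 and 11.4 in an interval that also reaches Nusap1. Mis18a, a partner subunit, had a weak peak in replicate 1, with a fold of 5.81 from 16 reads, and none in replicate 2.

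In the CCAN, 13 of 14 genes had a peak in both lists, and folds ran from 6.14 to 43.6 in replicate 1 and from 6.55 to 45.1 in replicate 2. By the mean of its fold percentiles in both lists (95.8), Cenpm led the group. Its product belongs to the CENP-H, -I and -K subcomplex, and its peak had folds of 43.6 (rank 56, the highest of all listed members in replicate 1) and 33.9 (rank 619), from 164 reads in each replicate. The summits lay at −322 and −266 bp from the annotated start of Cenpm, but still inside the gene span, which reaches farther out. The peaks were chr15:82243820-82245241 in replicate 1 and chr15:82244004-82245147 in replicate 2. The promoter window of Cenpm (RefSeq, GRCm38.p6, chr15:82244287-82244586, minus strand, from 250 bases before to 50 after the start) is shown because it belongs to the CCAN gene with the highest mean percentile and holds an E2F motif, in capitals. Both summits lie just upstream of it.
Cenpm: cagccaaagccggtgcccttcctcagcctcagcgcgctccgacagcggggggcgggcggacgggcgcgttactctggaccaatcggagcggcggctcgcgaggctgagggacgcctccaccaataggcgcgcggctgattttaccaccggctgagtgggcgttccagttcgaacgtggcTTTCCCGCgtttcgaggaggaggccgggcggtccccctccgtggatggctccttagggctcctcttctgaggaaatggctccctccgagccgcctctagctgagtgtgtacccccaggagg

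Cenpp had the largest fold of the group in replicate 2, at 45.1 (rank 277), and 16.9 in replicate 1 (rank 1333). It lies head to head with Nol8, with 347 bp between the annotated starts, and its peak reaches both genes. Cenpu, Cenpq and Cenpo encode its partners in the same subcomplex. Cenpu had folds of 18.6 and 29.4, while Cenpq, whose peak also reaches Mmut, had 6.64 and 10.1.

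Cenps, a histone-fold protein that also works in the Fanconi anaemia pathway, had folds of 19.0 and 32.5. Cenpw, its histone-fold relative in the CENP-T complex, had 17.4 and 22.9. Both genes stood at a fold percentile of 82.0 or above in both lists.

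Cenpn and Cenpl, whose products bind the CENP-A nucleosome as a pair, were also well above the median. Cenpn had folds of 29.9 and 19.1 from 144 and 151 reads, in an interval shared with Cmc2. Cenpl had 18.6 and 16.6. In replicate 1 Cenpl and Cenpu had the same fold because each rested on 52 reads over the genome-wide background.

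Cenpc1, the protein that ties CENP-A nucleosomes to the outer layer, had folds of 10.9 and 19.2. Cenpk had 11.5 and 17.4. Cenph had 9.96 and 7.81, and its X-linked partner Cenpi had 8.43 and 12.2.

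Cenpt, which links the inner network to the NDC80 complex, was the weakest gene with peaks in both lists, with folds of 6.14 (rank 6194) and 6.55 (rank 6552). Those summits lay at −3290 and −3239 bp from the annotated start of Cenpt, 212 and 161 bp outside the upstream end of its span. That end is 16 bp from the span of Thap11, which these peaks also reach. The annotated starts of Cenpt and Thap11 are 3095 bp apart on opposite strands, so both summits lay nearer to that of Thap11. At the annotated start of Cenpt itself a peak was listed in replicate 2 alone, at chr8:105851770-105852097, with a fold of 5.16 from 18 reads. It ranked 8024 of 8027 by −log10 q-value, so it lay just inside the end of the list.

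The NDC80 complex is the main microtubule-binding part of the kinetochore. Among the role groups of the 35 genes it had the highest median fold in replicate 2 (37.4). Its 22.6 in replicate 1 came second among them, after the single Knl1 peak of the Knl1 and Zwint pair (24.0). All 4 subunit genes had a peak in both lists. Nuf2 (chr1:169529991-169532072 in replicate 1) had folds of 32.6 and 45.8, with 92 and 130 reads over the genome-wide background, and the highest mean percentile of the 31 genes (97.1). Ndc80 had 27.3 and 57.3 (rank 122), the highest fold of any member in replicate 2. Spc24 had 17.8 and 22.7, and Spc25 11.6 and 28.9.

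The Ndc80 peak, at chr17:71526405-71527847 in replicate 1, also came within 1000 bp of Spdya, whose span lies 37 bp away but whose annotated start is 25204 bp from that of Ndc80. The Nuf2 peak reached no other protein-coding gene. Its promoter window (GRCm38.p6, chr1:169531415-169531714, minus strand) is shown because this strong peak has none of the E2F, CHR or CCAAT letters searched here in the window, so nothing is in capitals. The summits lay 71 and 44 bp downstream of the start, near or past the end of the window.
Nuf2: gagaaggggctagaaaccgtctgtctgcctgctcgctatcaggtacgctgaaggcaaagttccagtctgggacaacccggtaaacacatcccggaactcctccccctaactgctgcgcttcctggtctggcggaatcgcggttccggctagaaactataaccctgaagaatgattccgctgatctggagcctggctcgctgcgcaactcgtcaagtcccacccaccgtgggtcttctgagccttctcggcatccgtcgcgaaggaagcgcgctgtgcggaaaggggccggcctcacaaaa

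The MIS12 complex joins the inner network to NDC80, and its 4 genes all had a peak in both lists. Mis12 (chr11:71018974-71020297 in replicate 1) was the strongest, with folds of 27.5 (rank 361) and 30.3 (rank 812), in an interval shared with Derl2, 230 bp from start to start. Pmf1 had 15.6 and 26.3, and Nsl1 had 14.2 and 14.3, each in an interval that also reaches a neighbour (Slc25a44 and Tatdn3). Dsn1 had 12.2 and 8.56.

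Knl1, the scaffold on which the checkpoint proteins gather, had a peak at chr2:119046799-119047607 in replicate 1. Its folds were 24.0 (rank 538) and 11.2 (rank 4087). Pileups were 85 and 62 reads over backgrounds of 2.58 and 4.65. Zwint, which binds Knl1 and helps recruit Zw10, had 1 peak, in replicate 2, with a fold of 5.58 (rank 7305) from 24 reads.

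The Ska complex, which follows the ends of shortening microtubules, had peaks at all 3 genes in both lists. Ska2 (chr11:87109243-87110701 in replicate 1, shared with Prr11) had folds of 16.6 and 12.7, with summits 586 and 549 bp downstream of its annotated start, the farthest downstream of the members apart from the extra Cenpo peak. Ska1, on chromosome 18, had 15.1 and 8.90. Ska3, whose peak also reaches Mrpl57, had 9.68 and 11.2.

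Among the outer corona, motor and checkpoint genes, Cenpf (chr1:189687677-189688563 in replicate 1) was highest, with folds of 13.2 and 20.8. Its product is a large corona protein that helps place dynein. Cenpe, a kinesin that carries chromosomes to the spindle middle, had 7.64 and 14.7. Zw10, of the complex that recruits dynein and Mad proteins, had 11.2 and 16.4. Bub3, a checkpoint protein, had a peak in replicate 2 only, with a fold of 11.4 (rank 3978).

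The 4 genes listed in a single replicate were not alike. The peaks of Mis18a, Cenpo and Zwint stood at percentiles of 1.68, 19.96 and 9.36 of their list by −log10 q-value. Among peaks within 5 points of those percentiles, 268 of 531, 209 of 804 and 327 of 801 had no overlapping peak in the other list. Bub3 stood at 44.3, from 37 reads over 2.32, where 5.85% of peaks (47 of 803) lacked one. The nearest peak of replicate 1 to it was 149802 bp away.

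Cenpo had another peak in replicate 2, at chr12:4219824-4221406, with a fold of 7.28. Its summit lay 13588 bp downstream of the annotated start of Cenpo, inside the gene span, and no other annotated gene came within 1000 bp. The peak at the start had a fold of 7.87 and is shared with Ptrhd1, whose span overlaps Cenpo by 243 bp.

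The replicates ranked the 31 genes in a broadly similar order. Spearman's rho between the folds was 0.66 across these genes and 0.71 across the 7535 protein-coding genes with a peak in both lists. By −log10 q-value it was 0.80 and 0.84. Genes are not independent replicates and share their library, so no p is given. Cenpa, Knl1, Dsn1 and Ska1 differed by over 30 points of fold percentile (12.9%, against 16.8% of the 7535 genes). All 4 stood higher in replicate 1, at 66.3 against 22.9 for Cenpa, 93.1 against 49.1 for Knl1, 67.8 against 34.3 for Dsn1 and 78.2 against 36.2 for Ska1. The local background was higher in replicate 2 at Cenpa, Knl1 and Ska1. The pileup was also lower in replicate 2 at Knl1 (85 and 62 reads) and Ska1 (42 and 32), and higher at Cenpa (43 and 55). At Dsn1 the background was 4.24 and 4.26 reads while the pileup was 63 and 44.

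**Figure D3:**
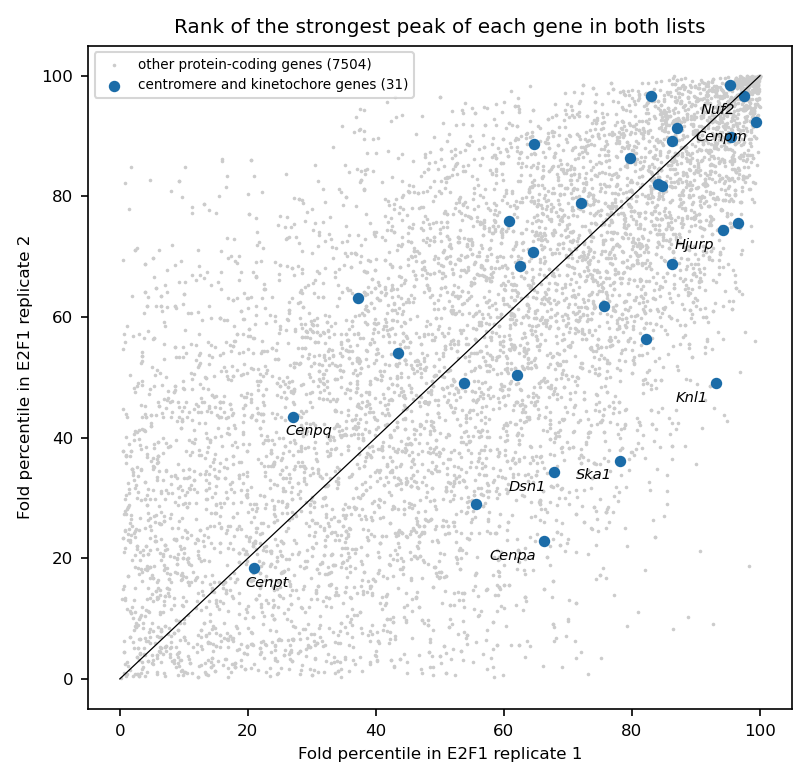
Fold percentile of the strongest peak of each gene in E2F1 replicate 1 (horizontal) and replicate 2 (vertical), for the 31 centromere and kinetochore genes (blue) and the other protein-coding genes (grey) of the 7535 with a peak in both lists. Points on the line have equal percentiles; Knl1, Ska1, Dsn1 and Cenpa lie farthest below it among the named genes, and Nuf2 and Cenpm lie in the upper right corner.

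Peaks sat at the starts of the genes. Among genes with an annotated start, the summit of the strongest peak was within 300 bp of it for 26 of 29 genes in replicate 1 and 28 of 31 in replicate 2 (89.7% and 90.3%). For all protein-coding genes with a peak the shares were 72.7% and 77.8%. The median summit lay 148 bp downstream of the start in replicate 1 and 44 bp downstream in replicate 2, beside 134 and 60 bp for all. In 14 of the 35 genes the peak also came within 1000 bp of another protein-coding gene. This share was not counted over all protein-coding genes, so it does not set the 35 genes apart. In the 9 of these neighbouring pairs with both starts annotated the genes lie on opposite strands. The distance between the starts ran from 76 bp (Ska3 and Mrpl57) to 25204 bp (Ndc80 and Spdya). Which gene of a pair a shared peak belongs to was not tested.

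Promoter windows were held for 32 of the 35 genes (all but Spc24, Nsl1 and Ska1) and for 17491 of all protein-coding genes. The E2F letters TTTCCCGC, TTTGGCGC, TTTGCCGC or TTTCGCGC, on either strand, were in the windows of 5 of the 32 genes (15.6%), Cenpl, Cenpm, Cenps, Dsn1 and Mis18a. They were in 3.29% of all windows, counted by gene, and in 6.19% of the windows of genes with a peak in both lists. Among all genes with these letters, 66.3% had a peak in both lists, against 34.1% of genes without them. With the first T left out the letters were in 12 of the 32 windows (37.5%), against 13.7% of all and 24.1% of those of genes with a peak in both lists.

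The stretches with the E2F letters are shown for 3 of these genes for comparison with the positions of the summits, with 10 bases on each side of the outer matches, in the direction of transcription and with the matches in capitals. They come from RefSeq (GRCm38.p6) at chr4:149137557-149137584 (minus strand, Cenps), chr2:157007262-157007289 (minus, Dsn1) and chr16:90727333-90727360 (minus, Mis18a). That of Cenpm is in its window above.
Cenps: cagaggtagcGCGGGAAAgtctgagccg
Dsn1: aggatgtacgGCGGGAAAagtcagcaaa
Mis18a: gttccggggcGCGGCAAAttcgtatgtc

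The match was inside the listed peak in 5 of 5 genes in replicate 1 and in 4 of 4 in replicate 2, where Mis18a has no peak. Member peaks were 552 to 2085 bp wide in replicate 1 and 328 to 1583 bp in replicate 2, and the windows searched held 300 bases. Peaks this wide can take in letters of any kind in that window, so the count does not set the E2F letters apart. The nearest E2F match lay 37 and 17 bp from the summits of Cenps and 121 and 6 bp from those of Cenpl. In Cenpm it was 254 and 198 bp away, in Dsn1 334 and 370 bp, and in Mis18a 255 bp in replicate 1. The median distance was 254 bp in replicate 1 and 107.5 bp in replicate 2. Within 100 bp were 1 of 5 and 2 of 4 genes. Folds of the genes with and without these letters overlapped: in replicate 1 they were 5.81 to 43.6 with a match and 6.14 to 32.6 without, and in replicate 2 they were 8.56 to 33.9 and 5.58 to 57.3. The median was higher with a match in both replicates, at 18.6 against 12.54 in replicate 1 and 24.57 against 16.45 in replicate 2. With 5 and 4 genes holding a match, this difference was not tested. The windows end 50 bases after the start, and the strongest summit lay past that end in 20 of 29 genes in replicate 1 and 12 of 31 in replicate 2. For all protein-coding genes with a peak and an annotated start it did so in 4356 of 6608 and 3561 of 6815. A window without these letters therefore does not cover the summit of many of these peaks.

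The CHR letters, TTTGAA or TTCGAA on either strand (TTCGAA reads the same on both), were in 16 of the 32 windows (50%), against 20.2% of all windows and 15.9% of those of genes with a peak in both lists. CCAAT, on either strand, was in 21 of 32 (65.6%), against 42.3% and 42.4%. Both were present in 11 of the 32 genes, against 9.24% of all. Within 50 bases of the annotated start, CHR letters were found in 11 of the 32 genes (34.4%), against 5.08% of all and 4.66% of genes with a peak in both lists. These were Bub3, Cenpa, Cenpf, Cenpn, Cenpw, Hjurp, Knl1, Ndc80, Oip5, Ska3 and Spc25. The Bub3 match stands at −43 bp from an annotated start of that gene but at −167 bp from another, and lies outside its listed peak. This narrower window was chosen after the positions had been seen.

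The 100 bases around the start (50 before and 50 from it on) are shown for 5 of these genes, from 3 role groups, with the CHR letters in capitals. They come from RefSeq (GRCm38.p6) at chr5:30666836-30666935 (plus strand, Cenpa), chr1:88277530-88277629 (minus, Hjurp), chr2:119047069-119047168 (plus, Knl1), chr17:71526808-71526907 (minus, Ndc80) and chr2:69206164-69206263 (minus, Spc25). In these 5, and in Cenpf and Oip5, the match lies after the start (7 genes), and in Bub3, Cenpn, Cenpw and Ska3 before it (4 genes).
Cenpa: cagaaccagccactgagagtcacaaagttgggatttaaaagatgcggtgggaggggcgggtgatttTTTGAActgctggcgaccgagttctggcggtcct
Hjurp: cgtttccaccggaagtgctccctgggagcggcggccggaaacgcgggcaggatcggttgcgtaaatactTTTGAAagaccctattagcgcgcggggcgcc
Knl1: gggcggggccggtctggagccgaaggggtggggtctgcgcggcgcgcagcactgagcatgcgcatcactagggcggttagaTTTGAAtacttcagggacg
Ndc80: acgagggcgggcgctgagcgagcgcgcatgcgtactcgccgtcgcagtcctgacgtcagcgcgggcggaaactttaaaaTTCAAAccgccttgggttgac
Spc25: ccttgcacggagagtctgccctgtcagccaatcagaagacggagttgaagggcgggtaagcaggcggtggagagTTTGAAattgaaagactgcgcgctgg

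**Figure D4:**
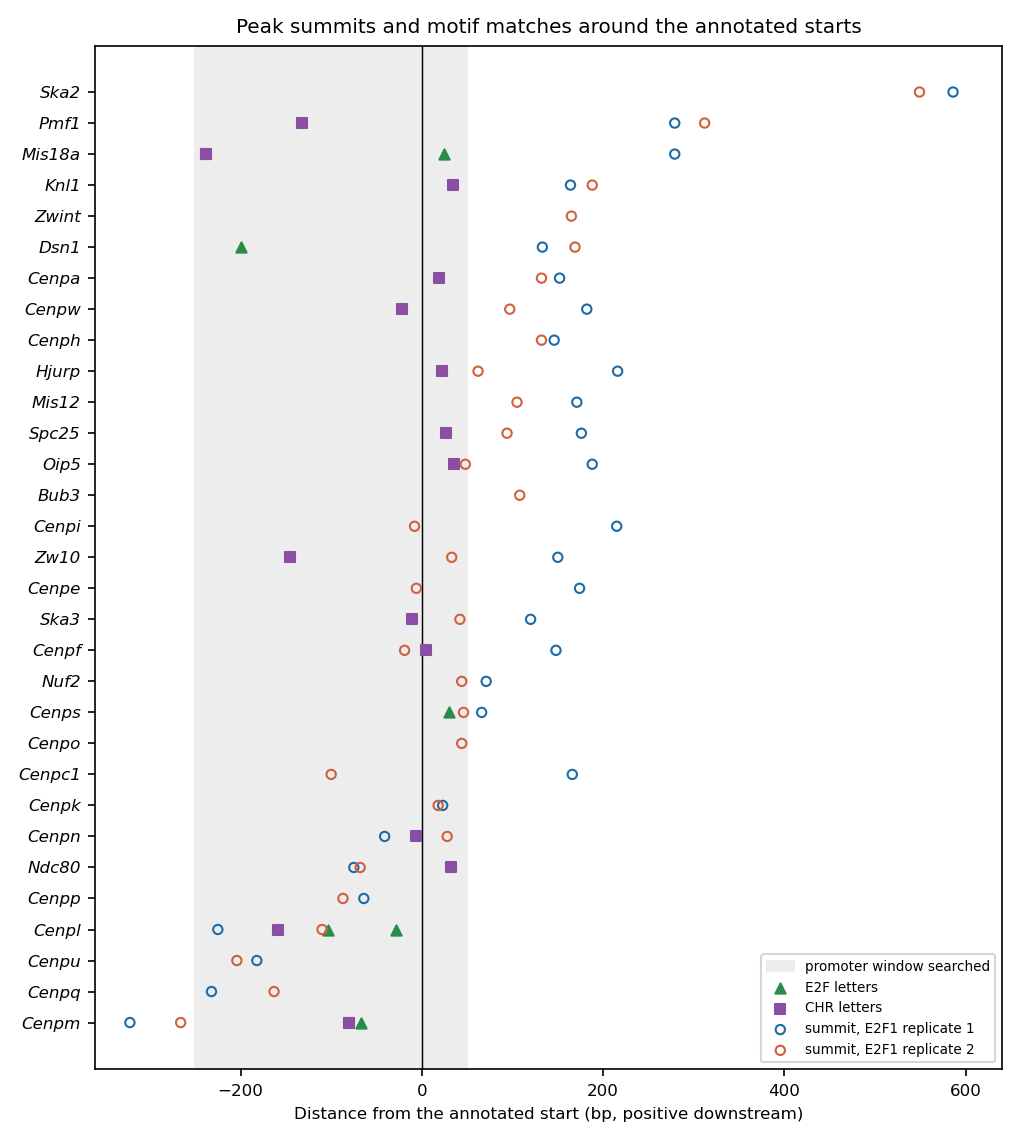
Position of peak summits (circles, blue for E2F1 replicate 1 and red-orange for replicate 2) and of E2F (triangles) and CHR (squares) letters relative to the annotated start, in bp, with each gene on its own line. Cenpt, with summits at −3290 and −3239 bp, is left out, as are the motif matches of Bub3 and Cenpk, which have several annotated starts. Shading is the window searched; most summits lie within 300 bp of the start and many lie past the right edge of the window.

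Base composition was set beside the counts because E2F1 peaks favoured GC-rich windows. The median GC content was 59.3% in the windows of the 32 genes (range 46.3 to 68.7), 57.3% in all windows and 64.7% in those of genes with a peak in both lists. In the same order, the median count of CpG (C followed by G) was 22.5, 15 and 26. Among the protein-coding genes whose window lay inside the GC range of the 32 genes, 35.7% had a peak in both lists. That range took in 11223 of the 17491 genes with a window, so it matched composition only loosely.

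The other genes of the same structures were treated in the same way, as a list of 23. A peak was listed in both E2F1 replicates at 21 of them (91.3%, Wilson 95% interval 73.2 to 97.6), against 34.4% of all protein-coding genes. No EV library listed one, where the shares of all protein-coding genes were 0.0366% and 0.407%. The 2 others were Bub1b, a checkpoint kinase-like protein, with a fold of 5.61 in replicate 2 only, and Mad2l1bp, a Mad2-binding protein that silences the checkpoint, with no peak in any list. Median folds, at 11.3 in replicate 1 and 12.5 in replicate 2, were lower than those of the 35 genes. The difference was not tested.

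By mean fold percentile (98.2) the highest of the 23 was Itgb3bp, which encodes the CCAN protein CENP-R. Its folds were 35.6 (rank 138) and 53.9 (rank 146), in an interval shared with Efcab7. Cenpb, which encodes the protein that binds a motif in centromeric satellite DNA, had 39.1 (rank 94) and 33.1 (rank 658). Incenp, the scaffold of the chromosomal passenger complex, had 27.4 and 40.1.

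All 4 genes of the chromosomal passenger complex had a peak in both lists, with median folds of 22.6 and 25.4. The spindle checkpoint genes stood lower, with 4 of 6 in both lists and median folds of 10.9 over 4 listed genes and 6.24 over 5. CHR letters within 50 bases of the start were found in 7 of the 19 genes with a window (36.8%, against 5.08% of all and 4.66% of genes with a peak in both lists), in the same window chosen after the positions had been seen. These were Bub1, Bub1b, Cdca8, Kntc1, Sgo1, Spdl1 and Ttk.

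With peaks at or above the median score of all E2F1 peaks only, 20 of the 35 genes had a peak in both lists, against 16.9% of all protein-coding genes, and 12 of the 23 others. Those no longer in both lists included Cenpa, Oip5, Cenpc1, Dsn1 and Cenpe.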

How the data were processed

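ChIP-seq peak lists of 4 libraries (2 E2F1, 2 EV) were analysed, and sample titles gave the group and replicate number. Per the submitters' processing notes the tools were FastQC, Trimmomatic, Bowtie2, MACS2 and ChIPseeker and the build mm10; roles, settings, antibody and the control of each list are not given in the sources used here. Peaks were taken as called per sample, since each deposited list has its own. In the narrowPeak layout the deposited score is the deposited −log10 q-value times 10 with decimals dropped. The deposited fold is a ratio of pileup to local background at the summit, beside a −log10 p-value, which is at least 10 in every list, so weaker sites are missing.

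Gene spans came from RefSeq (GRCm38.p6). No library totals were used. Pileup and background were solved from fold and p, with a pseudocount of 1 and a Poisson upper tail, for 99.99% and 99.98% of peaks of E2F1 replicates 1 and 2 and 95.7% and 99.7% of EV replicates 1 and 2, member peaks included, within 5% of the step between neighbouring pileups. Motifs were searched as plain letters on both strands, and gene-to-peak assignment was tested on planted peaks. Computation used Python 3.11.15, pandas 2.3.3 and SciPy 1.17.1.

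The members and lists were chosen with earlier results of these data known. Named were the highest gene of each role, the 5 highest of all, genes missing from a list, with several peaks or with percentiles over 30 points apart, and of the 23 others the 3 highest and those missing from a list; all other members are given briefly. Alternatives changed the distance (0, 500 and 2500 bp), the score threshold, the part of peak or gene used, the overlap, the ranking measure, the motif letters and the libraries. The depth scaling and the backgrounds by GC content and motif were added after the data were seen. Some items near the members are not reported here.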

Additional observations from a re-analysis of the deposited data

How the results depend on the processing

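Of 46 alternatives over 5 results, 43 kept the direction and stayed within 1.5 times a count or within the spread between libraries. The others were the stricter score, with 20 of the 35 genes and 12 of the 23 others in both lists, where weaker peaks are removed by construction, and the E2F letters without the first T, with 12 of 32 windows in place of 5. Leaving out E2F1 replicate 1 or 2 gave 34 or 32 genes with a peak. The difference in genes with a peak between E2F1 and EV libraries ran from 32 to 34 without 1 library each. With the replicate block the difference stayed at 33, and exact sign flips over the 2 pairs gave p = 0.5, their lowest possible value; 1 value per library cannot show whether the numbers pair the samples. The median fold percentile of the members was 72.8, and ran from 68.0 by −log10 q-value to 76.9 without E2F1 replicate 2. Within 1000 bp of the annotated start 27 genes had a peak in both lists, against 26.4% of all protein-coding genes. Cenpt left the count, and so did Spc24, Nsl1 and Ska1, for which no promoter window and so no start was held. The end of the lists at a fixed p-value limits every count to stronger sites.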
